A study of Glycine max with 20 samples.

Results

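The extended hilum region of the soybean seed coat was compared between 2 stages of seed growth in the Minute hilum (mi) isoline UC413. The later stage, EH50, came from seeds of 50 to 100 mg and the earlier stage, EH25, from seeds of 25 to 50 mg. The growth notes in the labels give a narrower range for EH50 than the sample titles used here. Each stage had 2 libraries, so the comparison rests on 4 of the 20 libraries of the series, chosen by isoline, tissue and stage as the labels give them. UC413 carries the genotype ii R t mi G and was bred by repeated backcrossing to Clark 63, the isoline UC7, which carries ii R T Mi g. It is a single isoline that differs from UC7 at the t and g loci as well as at mi. All plants grew in a greenhouse, and the hilum with a ring of surrounding seed coat was cut from the seeds. Libraries of UC7 at EH50 and EH25, of both isolines at EH10 (10 to 25 mg) and EH100 (100 to 200 mg), and of whole seed coats (WS10, WS25 and WS50) are given where they bear on the members. The paper describes the replicates as independent, whereas the labels do not say whether they came from separate plants, so the p-values measure the spread between these libraries only.

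The hilum is the scar where the seed was joined to the pod, and the vascular strand that feeds the seed enters the coat there. The seed coat develops from the integuments of the ovule. Early in its growth it makes flavonoids, among them the proanthocyanidins (condensed tannins) and their precursors. Later, cells of the hilum form thick lignified walls, such as those of the tracheid bar, a xylem-like tissue beneath the hilum of legume seeds. The mi allele is named for its small hilum, around which the coat cracks as the seed matures.

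All levels below are RPKM (reads scaled by model length and library alignments) divided by a size factor of the library, and changes are log2 differences of EH50 minus EH25 after adding 0.25 RPKM. A change was called when its adjusted p from limma was under 0.05. The UC413 libraries held 122987000 and 116431000 alignments at EH50, against 95776900 and 115034000 at EH25. Size factors were 1.18 and 1.15 at EH50, against 1.19 and 1.17 at EH25, and the median change over all models was 0.01. The rDNA region took 0.490 and 0.869% of alignments at EH50, against 0.897 and 0.710% at EH25. A stranded kit was used for all of these libraries except EH50 replicate 1, whose kit was non-stranded, so at EH50 kit and replicate cannot be told apart. The EH25 replicates correlated at 0.971 and the EH50 replicates at 0.98 (Pearson, log2 values over 57568 models). EH25 replicate 2 lay closer to the EH50 libraries, at 0.939 and 0.961, than EH25 replicate 1 did, at 0.912 and 0.929. Integument markers were present: a homologue of the Arabidopsis ovule gene STK, Glyma.06G324400.4, was the most abundant marker at up to 336.8 RPKM, and 19 of 43 seed coat markers passed 10 RPKM in some library. Of the 24 tested, 5 were lower at EH50 and 0 were higher, among them the homologues of BAN, TT8 and TT12 described below.

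Of 57568 Glyma models tested, 1243 (2.16%) were higher and 1914 (3.32%) were lower at EH50 than at EH25. The higher models had a median log2 change of 1.01 and the lower ones of -1.17. Every called model also lay on the same side of both EH25 libraries in the stranded EH50 library alone, with medians of 0.99 and -1.08. That library also entered the calls, so this agreement is largely built in. A change of at least 2-fold in that library alone was seen for 606 of the higher and 1097 of the lower models. With EH50 replicate 1 left out, which leaves 1 EH50 library, 207 models were higher and 416 were lower. Without EH25 replicate 1 the numbers were 182 and 372.

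**Figure D1:**
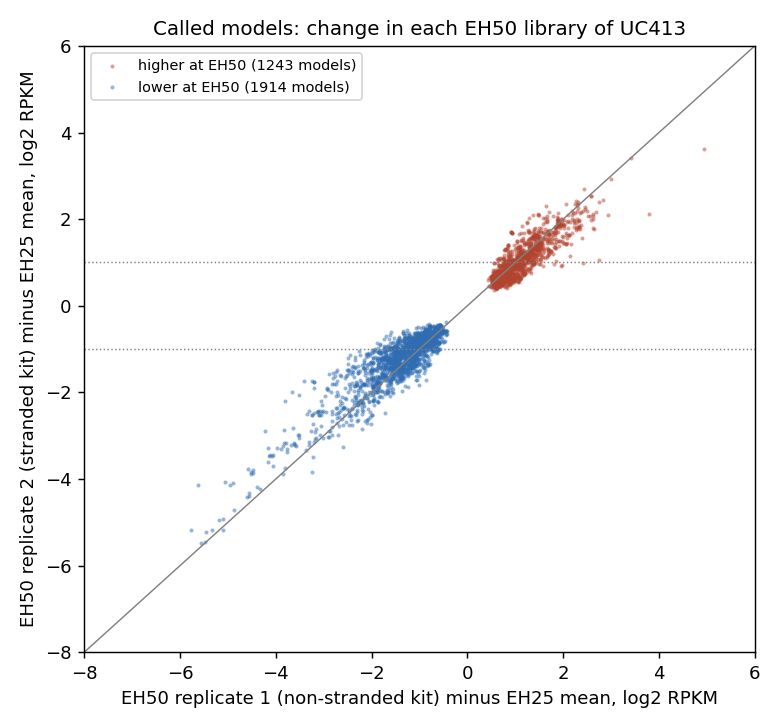
Change of each called model in the 2 EH50 libraries of UC413, each against the mean of the EH25 libraries, in log2 RPKM (replicate 1 on the horizontal axis, replicate 2 on the vertical axis). Each point is a model, the line marks equal change and the dotted lines mark 2-fold in replicate 2. All 1243 higher and 1914 lower models had the same sign in both libraries, both of which entered the calls.

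The same models were then read in UC7, whose libraries were in the same fit and shared its filter and its estimate of the spread, but gave no value to the change in UC413. In UC7, 1232 of the 1243 higher models (99.1%) were also higher at EH50 and 1826 of the 1914 lower models (95.4%) were also lower, where 50.5% and 49.5% of all models had those signs. Their median changes in UC7 were 0.63 and -0.66. With only the stranded EH50 library of UC7 the shares were 98.95% and 94.9%. In whole seed coats of UC413, which were outside the fit and had 1 library a stage, 1207 of the higher models (97.1%) were higher at WS50 than at WS25 and 1873 of the lower models (97.9%) were lower, against 49.5% and 50.5% of all models. The WS50 library was made with the non-stranded kit.

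Counted with 1 model per gene and outside the rDNA region and organelle-like models, 733 of 31449 genes (2.33%) were higher and 1191 (3.79%) were lower at EH50. Of these, 408 (1.3%) and 749 (2.38%) also differed at least 2-fold in the stranded EH50 library alone. Genes were grouped into 61 lists by protein domain, annotation words or best Arabidopsis match, and the names of Arabidopsis genes below stand for that match. A gene can be in more than 1 list, so counts of different lists are not independent. The secondary wall and xylem list shares genes with the laccases, cellulose synthases and papain-type proteases. The lists with the largest shares of higher genes were secondary wall and xylem genes, embryo or cotyledon markers and laccases. Those with the largest shares of lower genes were flavonoid and proanthocyanidin enzymes, cutin, suberin and wax genes, and pectate lyases. The 5 lower pectate lyases were not called without EH50 replicate 1, without EH25 replicate 1 or with a covariate for the kit (0 each). Where counts are given below with a library left out, the first is without EH50 replicate 1 and the second without EH25 replicate 1.

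**Figure D2:**
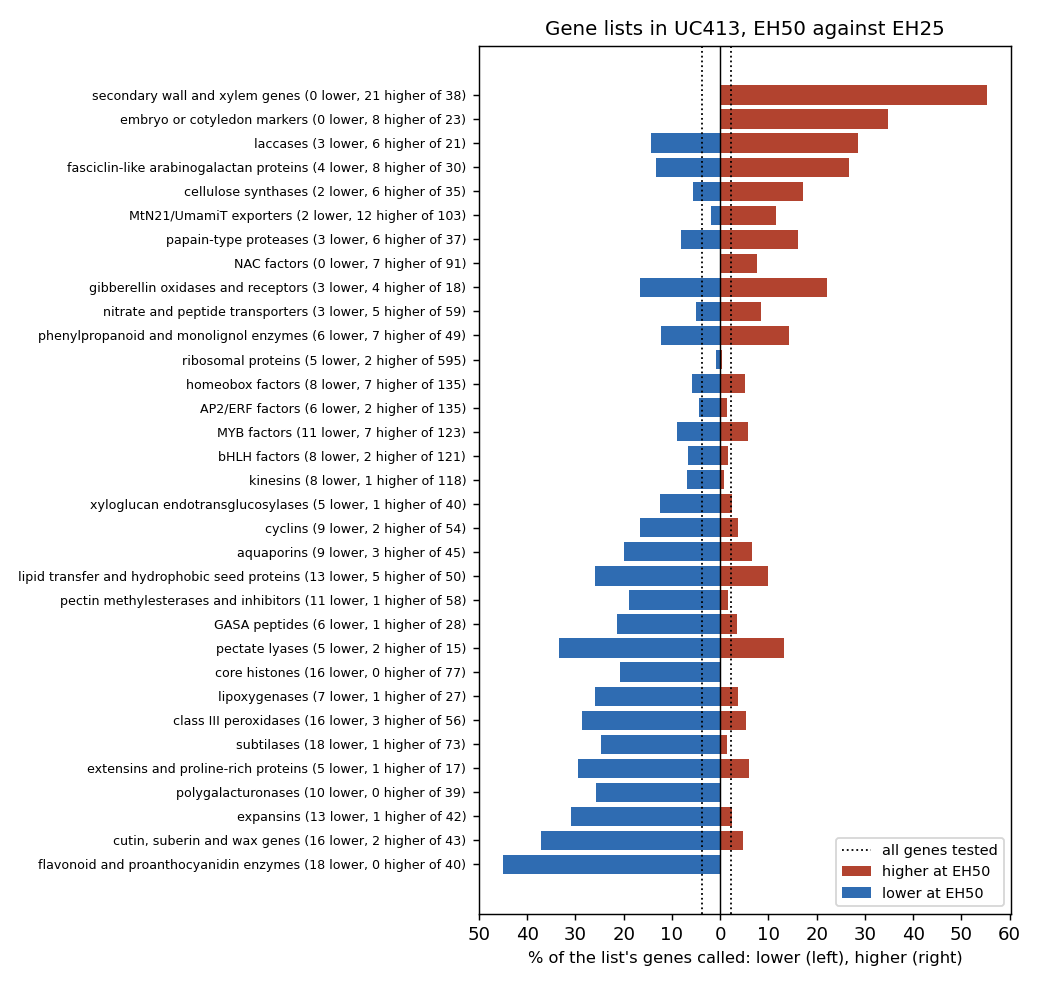
Share of the tested genes of each list that was lower (bars to the left) or higher (bars to the right) at EH50 than at EH25 in UC413, in %, for lists with at least 6 called genes. Dotted lines mark the shares of all genes tested, 3.79% lower and 2.33% higher. Secondary wall and xylem genes (21 higher, 0 lower of 38) and flavonoid and proanthocyanidin enzymes (18 lower, 0 higher of 40) lie at opposite ends.

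Many genes of the secondary wall and xylem list rose and none of that list fell. Of 38 secondary wall and xylem genes tested, 21 were higher at EH50 and 0 were lower, and the median change of the list was 1.06, beside 0.01 over all models tested. In the stranded EH50 library alone 19 of the 21 lay at least 2-fold up. Without EH50 replicate 1, 5 of the 38 passed the test (0.407% of all genes did), and without EH25 replicate 1, 4 did (0.382%). In bulk tissue a larger share of xylem cells cannot be told apart from more RNA per cell.

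Several steps of wall building were represented, beginning with lignin. Glyma.12G121700.1, a homologue of the laccase LAC4 that polymerizes lignin in Arabidopsis stems, had 6.87 and 8.20 RPKM in the EH50 libraries, against 0.643 and 1.67 RPKM in the EH25 libraries (log2 change 2.57, SE 0.33, adjusted p = 0.00266). Another LAC4 homologue, Glyma.06G284300.1, had 1.39 and 1.68 RPKM at EH50, against 0.0961 and 0.311 RPKM at EH25 (log2 change 2.01, SE 0.29, adjusted p = 0.00483). Both genes were low, and each EH50 library exceeded the higher EH25 library several times over. Among all 21 laccases tested, 6 were higher and 3 were lower, and with a library left out 2 and 2 were higher and 3 and 4 were lower.

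Cellulose synthases had 6 higher and 2 lower of 35, and with a library left out 2 and 1 were higher. Glyma.09G051100.1 and Glyma.15G157100.1, both close to CESA4, are near copies that can share reads. Glyma.09G051100.1 had 109 and 123 RPKM at EH50, against 37.7 and 64.2 RPKM at EH25 (log2 change 1.23, SE 0.23, adjusted p = 0.0162). The CESA7 homologue Glyma.06G225500.2 had 131.5 and 123 RPKM at EH50, against 49.8 and 72.8 RPKM at EH25 (log2 change 1.07, SE 0.22, adjusted p = 0.0224) and the CESA8 homologue Glyma.08G117500.2 was lower in level and also higher at EH50, with 5.06 and 6.63 RPKM at EH50, against 1.56 and 1.95 RPKM at EH25 (log2 change 1.601, SE 0.21, adjusted p = 0.00279). In contrast Glyma.10G223500.3, a homologue of the primary wall synthase CESA6, fell, with 1.47 and 1.83 RPKM at EH50, against 5.82 and 7.31 RPKM at EH25 (log2 change -1.84, SE 0.16, adjusted p = 0.000423). The CESA4, CESA7 and CESA8 proteins form the secondary wall complex in Arabidopsis, while CESA6 serves growing cells.

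The chitinase-like CTL2, which acts in secondary wall cellulose deposition, was the most abundant of the group. Glyma.15G143600.1 had 198 and 166.2 RPKM at EH50, against 65.7 and 78.8 RPKM at EH25 (log2 change 1.33, SE 0.21, adjusted p = 0.00646), and its copy Glyma.09G038500.1 had a change of 1.20. For xylan, Glyma.12G214700.1, homologous to the glycosyltransferase GAUT12 (IRX8), had 4.75 and 5.93 RPKM at EH50, against 0.857 and 2.28 RPKM at EH25 (log2 change 1.73, SE 0.32, adjusted p = 0.0142). In both genes the EH25 replicates differed from each other, replicate 2 being the higher.

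Genes that act as xylem cells die and clear their contents were among the risers. Glyma.04G014800.1, a homologue of the xylem cysteine peptidase XCP2, had 22.8 and 22.4 RPKM at EH50, against 6.69 and 11.7 RPKM at EH25 (log2 change 1.33, SE 0.25, adjusted p = 0.0160). The bifunctional nuclease BFN1 homologue Glyma.15G068600.1 had 5.51 and 4.53 RPKM at EH50, against 1.17 and 1.64 RPKM at EH25 (log2 change 1.68, SE 0.32, adjusted p = 0.0158) and the metacaspase MC9 homologue Glyma.19G122300.1 had 2.63 and 2.84 RPKM at EH50, against 1.13 and 1.12 RPKM at EH25 (log2 change 1.12, SE 0.17, adjusted p = 0.00691). NAC transcription factors, the family that includes switches of vessel formation, had 7 higher and 0 lower of 91, and 0 and 0 with a library left out. The 7 included 2 homologues of NAC007 (VND4) and 2 of NAC073 (SND2). Glyma.05G055900.2 (NAC007) had 1.19 and 1.19 RPKM at EH50, against 0.238 and 0.340 RPKM at EH25 (log2 change 1.43, SE 0.24, adjusted p = 0.00984), and Glyma.07G201800.1 (NAC073) had 4.14 and 5.36 RPKM at EH50, against 1.92 and 1.51 RPKM at EH25 (log2 change 1.35, SE 0.24, adjusted p = 0.0135).

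Fasciclin-like arabinogalactan proteins, cell surface glycoproteins, split into 8 higher and 4 lower of 30, of which 2 and 2 were higher and 0 and 0 lower with a library left out. The 4 named members all matched FLA11, a gene of secondary walls, and can share reads. Glyma.15G086100.1 had 7.002 and 11.1 RPKM at EH50, against 2.27 and 1.87 RPKM at EH25 (log2 change 1.97, SE 0.24, adjusted p = 0.00234). Phenylpropanoid and monolignol enzymes had 7 higher and 6 lower of 49, and all 4 named members fell. With a library left out 1 and 2 were higher and 6 and 5 were lower. Of these, Glyma.20G176100.1, annotated as an O-methyltransferase, had 4.68 and 9.60 RPKM at EH50, against 170 and 158 RPKM at EH25 (log2 change -4.56, SE 0.35, adjusted p = 0.000271) and the 4-coumarate:CoA ligase 4CL3 homologue Glyma.01G232400.1 had 1.82 and 1.66 RPKM at EH50, against 20.8 and 11.3 RPKM at EH25 (log2 change -2.96, SE 0.25, adjusted p = 0.000412). Among the 7 that rose, Glyma.08G220200.2, a homologue of HCT, which acts on the way to lignin, had 51.7 and 36.8 RPKM at EH50, against 8.13 and 16.9 RPKM at EH25 (log2 change 1.87, SE 0.30, adjusted p = 0.00756). Some enzymes of this list also feed flavonoid synthesis.

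The most abundant named gene that rose was Glyma.16G107500.1, a pectin acetylesterase, an enzyme that removes acetyl groups from pectin, with 2071 and 2490 RPKM at EH50, against 532 and 802 RPKM at EH25 (log2 change 1.80, SE 0.32, adjusted p = 0.0126). Its neighbour Glyma.16G107600.2 had 230 and 339 RPKM at EH50, against 110 and 147 RPKM at EH25 and can share reads with it. Glyma.10G094800.1 and Glyma.02G180500.1, which the file leaves without annotation, were also among the 6 most abundant. The first had 612 and 585 RPKM at EH50, against 94.9 and 159 RPKM at EH25 (log2 change 2.28, SE 0.28, adjusted p = 0.00234), and the second had 433 and 400 RPKM at EH50, against 73.4 and 112 RPKM at EH25 (log2 change 2.19, SE 0.28, adjusted p = 0.00268). A lipid-transfer protein gene, Glyma.05G002200.1, had 557 and 538 RPKM at EH50, against 200 and 282 RPKM at EH25 (log2 change 1.21, SE 0.24, adjusted p = 0.0201).

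The largest rises were found in genes that were low at EH25. Glyma.13G288100.1, a member of the protease inhibitor, seed storage and lipid-transfer family, had 34.5 and 13.7 RPKM at EH50, against 1.42 and 0.513 RPKM at EH25 (log2 change 4.28, SE 0.72, adjusted p = 0.00991). The EH50 replicates differed for this gene, replicate 1 being the higher, and both lay far above each EH25 library. Glyma.06G050400.1 (unknown function) and Glyma.16G094100.1 (glycosyltransferase family 92) had changes of 3.41 and 2.96. Glyma.01G019200.1, a phosphoenolpyruvate carboxykinase, an enzyme of gluconeogenesis and organic acid use, had 31.0 and 17.1 RPKM at EH50, against 3.06 and 4.71 RPKM at EH25 (log2 change 2.52, SE 0.52, adjusted p = 0.0235). Papain-type proteases had 6 higher and 3 lower of 37 (0 and 2 higher, 1 and 1 lower with a library left out), with Glyma.10G207100.1 at 31.8 and 22.8 RPKM at EH50, against 6.58 and 4.12 RPKM at EH25 (log2 change 2.31, SE 0.38, adjusted p = 0.00903).

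Many genes of the flavonoid pathway fell and none rose. Of 40 flavonoid and proanthocyanidin enzymes tested, 18 were lower at EH50 and 0 were higher, with a median change of -0.96. Of the 18, 17 lay at least 2-fold down in the stranded EH50 library alone. Without EH50 replicate 1, 10 passed (0.903% of all genes did), and without EH25 replicate 1, 9 did (0.824%). The summed level of the 40 genes was 828 and 1014 RPKM at EH50, against 3030 and 2549 RPKM at EH25, where a read shared by copies counts more than once.

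The fall was seen from the first steps to the last ones. A chalcone synthase, Glyma.01G228700.1, the enzyme that opens the pathway, had 28.0 and 23.0 RPKM at EH50, against 71.2 and 77.3 RPKM at EH25 (log2 change -1.54, SE 0.23, adjusted p = 0.00589). Flavanone 3-hydroxylase, Glyma.02G048400.3, was the most abundant of the named enzymes, with 198 and 265 RPKM at EH50, against 713 and 696 RPKM at EH25 (log2 change -1.62, SE 0.32, adjusted p = 0.0201), and its copy Glyma.02G048600.1 had a change of -1.64. Dihydroflavonol 4-reductase (DFR), Glyma.17G252200.2, had 4.49 and 6.73 RPKM at EH50, against 63.3 and 47.3 RPKM at EH25 (log2 change -3.26, SE 0.24, adjusted p = 0.000214). Anthocyanidin synthase (ANS), which makes anthocyanidins, was measured by Glyma.11G027700.1, with 35.03 and 65.2 RPKM at EH50, against 318 and 238 RPKM at EH25 (log2 change -2.52, SE 0.31, adjusted p = 0.00246), and by Glyma.01G214200.1, with a change of -2.63.

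The 2 largest falls in the list were of proanthocyanidin genes. Glyma.08G062000.2, a homologue of BAN (anthocyanidin reductase), which makes the epicatechin units of proanthocyanidins, had 6.68 and 10.8 RPKM at EH50, against 184 and 127 RPKM at EH25 (log2 change -4.13, SE 0.33, adjusted p = 0.000305). Glyma.14G032400.1, a homologue of TT12, a MATE transporter that carries proanthocyanidin precursors into the vacuole of the Arabidopsis seed coat, had 0.909 and 1.79 RPKM at EH50, against 40.7 and 31.4 RPKM at EH25 (log2 change -4.55, SE 0.33, adjusted p = 0.000213). In both genes each EH50 library lay more than 10-fold below each EH25 library. Another MATE transporter, Glyma.17G247400.1, had 0.218 and 0.446 RPKM at EH50, against 36.4 and 17.3 RPKM at EH25 (log2 change -5.48, SE 0.32, adjusted p = 0.000117). Of the other 3 models tested that matched BAN, 0 were called.

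Some genes that match regulators of the pathway in Arabidopsis were called lower. Glyma.13G109100.1, a homologue of the flavonol regulator MYB12, had 0.401 and 0.950 RPKM at EH50, against 15.1 and 8.53 RPKM at EH25 (log2 change -3.72, SE 0.34, adjusted p = 0.000529). Glyma.17G143600.1, matching MYB5, which acts in the Arabidopsis seed coat, had 1.01 and 1.24 RPKM at EH50, against 9.70 and 5.64 RPKM at EH25 (log2 change -2.48, SE 0.28, adjusted p = 0.00175). In Arabidopsis the bHLH factor TT8 works with MYB proteins on BAN, and its homologue Glyma.10G026000.1 had 12.9 and 11.3 RPKM at EH50, against 27.3 and 17.3 RPKM at EH25 (log2 change -0.84, SE 0.21, adjusted p = 0.0459). The last of these did not reach 2-fold in the stranded EH50 library. The MYB family as a whole had 7 higher and 11 lower of 123, and 1 and 1 higher and 5 and 5 lower with a library left out.

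Many genes for the plant surface also fell. Of 43 cutin, suberin and wax genes, 16 were lower at EH50 and 2 were higher, and 13 of the 16 lay at least 2-fold down in the stranded library alone. The test still called 10 lower without EH50 replicate 1, and 9 without EH25 replicate 1. Glyma.16G180500.1, a homologue of DCR, an acyltransferase needed for cutin, had 8.31 and 9.04 RPKM at EH50, against 54.9 and 54.4 RPKM at EH25 (log2 change -2.62, SE 0.17, adjusted p = 0.000131). The EH25 replicates agreed closely with each other for this gene, and both EH50 libraries were far lower.

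Glycerol-3-phosphate acyltransferase 6 (GPAT6) attaches the fatty acids of cutin, and Glyma.07G146800.1 had 2.56 and 2.81 RPKM at EH50, against 16.9 and 19.6 RPKM at EH25 (log2 change -2.66, SE 0.15, adjusted p = 0.000117). The fatty acid hydroxylase homologous to CYP86A8, Glyma.03G008100.1, had 0.686 and 0.519 RPKM at EH50, against 6.39 and 5.26 RPKM at EH25 (log2 change -2.83, SE 0.17, adjusted p = 0.000117). Homologues of MYB16 and SHN1, transcription factors of the epidermis in Arabidopsis, were also called lower. Glyma.19G024700.1, a homologue of MYB16 (MIXTA-like), had 1.78 and 1.58 RPKM at EH50, against 14.4 and 9.96 RPKM at EH25 (log2 change -2.67, SE 0.17, adjusted p = 0.000120). Glyma.17G114500.1, matching SHN1 (WIN1), an AP2/ERF activator of cutin and wax genes, was low, with 0.629 and 0.463 RPKM at EH50, against 2.31 and 2.81 RPKM at EH25 (log2 change -1.82, SE 0.21, adjusted p = 0.00166). Both higher genes of the list changed less than 2-fold in the stranded library.

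**Figure D3:**
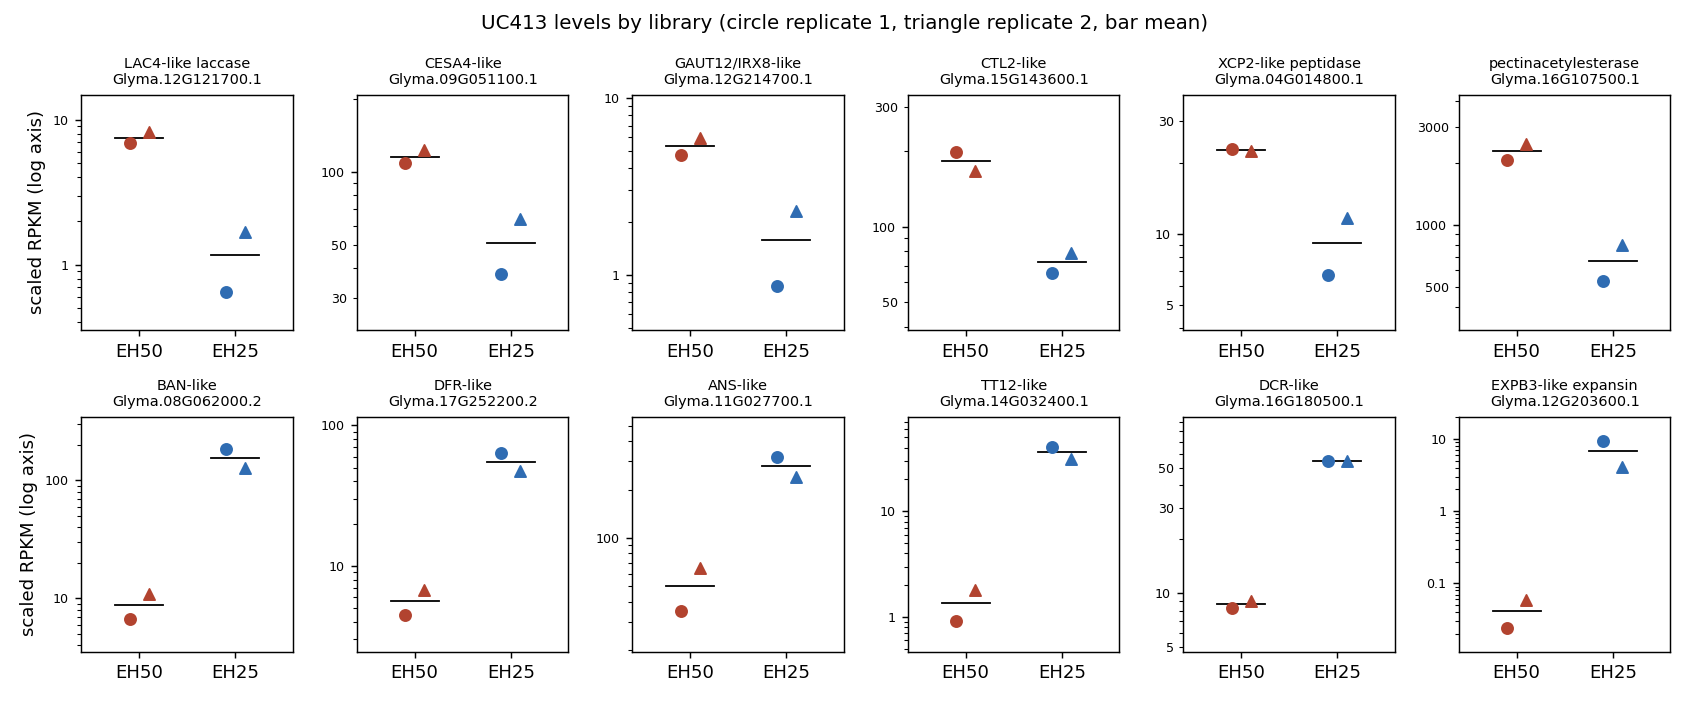
Levels in scaled RPKM (log axes, 1 per gene) of 6 genes higher at EH50 (top row) and 6 lower at EH50 (bottom row) in UC413. Circles are replicate 1, triangles replicate 2 and bars the means. The genes were chosen as called, with the stranded EH50 library beyond both EH25 libraries, so the gap between the stages largely follows from that choice.

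Lipid-transfer and hydrophobic seed proteins, small secreted proteins of which many bind lipids, had 13 lower and 5 higher of 50, and 7 and 7 lower and 0 and 1 higher with a library left out. Glyma.07G141500.1 had 4.89 and 7.06 RPKM at EH50, against 59.7 and 38.6 RPKM at EH25 (log2 change -2.98, SE 0.32, adjusted p = 0.00133). Glucose-methanol-choline oxidoreductases were among the 12 largest falls, Glyma.17G132100.2 with 0.149 and 0.219 RPKM at EH50, against 23.3 and 12.8 RPKM at EH25 (log2 change -5.34, SE 0.30, adjusted p = 0.000117) and Glyma.05G050100.1 with a change of -5.14. The abundant Glyma.02G032300.1, a homologue of MLP423, a Bet v I family protein, had 17.5 and 18.8 RPKM at EH50, against 435 and 297 RPKM at EH25 (log2 change -4.29, SE 0.30, adjusted p = 0.000150).

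Wall-loosening proteins that passed the test were nearly all lower. Expansins, which let walls extend, had 13 lower and 1 higher of 42, and all 13 lay at least 2-fold down in the stranded library alone. Without EH50 replicate 1, 6 were lower, and without EH25 replicate 1, 3 were. Glyma.12G203600.1, an EXPB3 homologue, was nearly lost, with 0.0245 and 0.0582 RPKM at EH50, against 9.46 and 4.11 RPKM at EH25 (log2 change -4.48, SE 0.31, adjusted p = 0.000150), or 5 and 11 alignments at EH50, against 1511 and 779 at EH25. The 1 higher expansin was Glyma.10G122600.1 (EXPB2), with 9.94 and 15.3 RPKM at EH50, against 4.15 and 2.75 RPKM at EH25 (log2 change 1.79, SE 0.44, adjusted p = 0.0443).

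Most pectin enzymes that passed the test were lower too. Their counts moved with the libraries, as did the counts over all genes. Polygalacturonases, which cut pectin, had 10 lower and 0 higher of 39, with 7 of the 10 at least 2-fold down in the stranded library alone, and 4 and 3 lower with a library left out. Pectin methylesterases and their inhibitors had 11 lower and 1 higher of 58, with 6 of the 11 at least 2-fold down, and 2 and 2 lower with a library left out. Pectate lyases had 5 lower and 2 higher of 15, with 2 of the 5 at least 2-fold down, and 0 and 0 lower with a library left out. The 2 higher lyases, Glyma.04G191100.1 and Glyma.06G174700.1, changed by 1.79 and 1.61. The summed level of the pectate lyases overlapped between stages, with 85.2 and 78.6 RPKM at EH50, against 79.5 and 92.6 RPKM at EH25. The sums of the polygalacturonases and of the pectin methylesterases and inhibitors were lower in both EH50 libraries than in either EH25 library. Xyloglucan endotransglucosylases, which cut and rejoin xyloglucan, had 5 lower and 1 higher of 40, and 2 and 2 lower and 0 and 0 higher with a library left out. The summed level of this family was nevertheless higher, with 425 and 493 RPKM at EH50, against 385 and 402 RPKM at EH25. Glyma.12G101800.1 (XTH9) had 0.353 and 0.684 RPKM at EH50, against 4.46 and 2.98 RPKM at EH25 (log2 change -2.38, SE 0.27, adjusted p = 0.00167), whereas Glyma.12G080100.1 (XTH32) had 3.91 and 3.91 RPKM at EH50, against 1.13 and 1.76 RPKM at EH25 (log2 change 1.33, SE 0.20, adjusted p = 0.00565).

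Class III peroxidases, secreted enzymes that act on wall phenolics, had 16 lower and 3 higher of 56, and 5 and 5 lower with a library left out. The summed level of the 56 peroxidases was nevertheless higher, with 4266 and 3861 RPKM at EH50, against 3472 and 3503 RPKM at EH25. Glyma.18G055300.1 had 3.98 and 6.21 RPKM at EH50, against 60.5 and 60.6 RPKM at EH25 (log2 change -3.54, SE 0.22, adjusted p = 0.000117), and Glyma.11G161600.1 had a change of -3.64. Subtilases, secreted serine proteases, had 18 lower and 1 higher of 73 (7 and 7 lower with a library left out), with Glyma.10G241600.1 (SBT1.3) at 0.281 and 0.269 RPKM at EH50, against 10.6 and 5.20 RPKM at EH25 (log2 change -3.87, SE 0.41, adjusted p = 0.00127). The summed level of all 73 subtilases was 1470 and 2628 RPKM at EH50, against 3360 and 3040 RPKM at EH25, with the EH50 replicates far apart.

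Extensins and proline-rich proteins had 5 lower and 1 higher of 17, and 3 and 2 lower with a library left out. Their summed level was 823 and 722 RPKM at EH50, against 671 and 693 RPKM at EH25. Glyma.09G092700.1 carries an extensin-like repeat but lay outside this list, so its higher level is not part of that sum. It was the most abundant named falling gene, with 261 and 523 RPKM at EH50, against 1508 and 1293 RPKM at EH25 (log2 change -1.92, SE 0.45, adjusted p = 0.0403). Glyma.13G200300.1, an abundant gene without annotation, had 32.1 and 81.6 RPKM at EH50, against 739 and 502 RPKM at EH25 (log2 change -3.57, SE 0.42, adjusted p = 0.00195). In both, EH50 replicate 2 was higher than replicate 1 and still lay under both EH25 libraries. GASA peptides, small cysteine-rich gibberellin-regulated proteins, had 6 lower and 1 higher of 28 (4 and 4 lower with a library left out), and Glyma.19G013000.2 had the largest fall of all named genes, with 0.274 and 0.303 RPKM at EH50, against 37.99 and 15.7 RPKM at EH25 (log2 change -5.52, SE 0.34, adjusted p = 0.000117).

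Genes of dividing cells that passed the test were mostly lower. Core histones had 16 lower and 0 higher of 77, with a median of -0.54, and 6 of the 16 lay at least 2-fold down in the stranded library alone. Cyclins had 9 lower and 2 higher of 54, and MCM and other DNA replication genes 4 lower and 0 higher of 26. Kinesins, motor proteins of which many act at the spindle, had 8 lower (6.78%, against 3.79% of all genes) and 1 higher of 118. With EH50 replicate 1 or EH25 replicate 1 left out, the lower share of kinesins was about that of all genes. Glyma.03G123600.1, a CYCB1 homologue of the G2 to M transition, had 0.431 and 0.829 RPKM at EH50, against 2.66 and 2.65 RPKM at EH25 (log2 change -1.76, SE 0.40, adjusted p = 0.0343). Without EH50 replicate 1, 0 of the histones, cyclins and replication genes were called lower, and 0 were without EH25 replicate 1. Levels of the histones in the stranded EH50 library lay above those in the non-stranded one for all 4 named members, among them Glyma.18G064400.1 with 2.62 and 5.97 RPKM at EH50, against 13.98 and 12.8 RPKM at EH25.

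Hormone genes gave small counts. Gibberellin oxidases and receptors had 4 higher and 3 lower of 18 (2 and 1 higher, 2 and 2 lower with a library left out), and both directions were seen within the gibberellin 2-oxidases, enzymes that inactivate gibberellin. Glyma.13G287600.1 (GA2OX8) had 5.21 and 7.20 RPKM at EH50, against 1.497 and 1.35 RPKM at EH25 (log2 change 1.93, SE 0.27, adjusted p = 0.00429). Glyma.17G037300.1 (GA2OX4) had 0.321 and 0.189 RPKM at EH50, against 2.68 and 2.43 RPKM at EH25 (log2 change -2.48, SE 0.25, adjusted p = 0.00107). Cytokinin oxidases, which break down cytokinin, had 2 lower and 0 higher of 10 (0 and 1 lower with a library left out), both matching CKX3, with Glyma.15G170300.1 at 0.469 and 0.362 RPKM at EH50, against 1.98 and 3.34 RPKM at EH25 (log2 change -2.09, SE 0.35, adjusted p = 0.00926).

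In ethylene perception and signalling 4 genes were higher and 0 lower of 43. They included the ETR1 receptor homologue Glyma.12G241700.2, with 9.02 and 7.85 RPKM at EH50, against 4.58 and 5.68 RPKM at EH25 (log2 change 0.70, SE 0.13, adjusted p = 0.0150), and 1 of the 4 changed at least 2-fold in the stranded library alone. With a library left out 0 and 0 were called. Aux/IAA and auxin response factors had 1 higher and 2 lower of 95 (0 in either direction with a library left out), and GH3 enzymes, jasmonate ZIM proteins and abscisic acid genes had 0 in either direction. SAUR proteins had 2 higher and 2 lower of 30, and 0 and 0 higher and 1 and 1 lower with a library left out.

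The ACC oxidase genes, which make ethylene from its precursor and which the study named, did not pass the test between these stages. Glyma.09G008400.1 had 116 and 148 RPKM at EH50, against 56.4 and 172.6 RPKM at EH25 (log2 change 0.41, SE 0.40, adjusted p = 0.620). Glyma.15G112700.1 had 42.9 and 50.0 RPKM at EH50, against 22.3 and 82.0 RPKM at EH25 (log2 change 0.11, SE 0.45, adjusted p = 0.923). The EH50 libraries lay between the 2 EH25 libraries in both genes, and EH25 replicate 2 held more than 3 times the level of replicate 1. The 2 genes can share reads. At EH100, with 1 library, Glyma.09G008400.1 was at 28.6 RPKM and Glyma.15G112700.1 at 6.68 RPKM. Of the 6 ACC oxidases and 2 ACC synthases tested, 0 were called. SbPRP3, Glyma.11G154900.1, a proline-rich wall protein gene, had 244 and 250 RPKM at EH50, against 428 and 274 RPKM at EH25 (log2 change -0.47, SE 0.31, adjusted p = 0.428).

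Transporter families were also listed. SWEET proteins, which export sugars, had 3 higher and 2 lower of 28, and 0 in either direction with a library left out. Glyma.04G198600.1 had 63.0 and 50.4 RPKM at EH50, against 25.3 and 24.3 RPKM at EH25 (log2 change 1.18, SE 0.21, adjusted p = 0.0134), and Glyma.19G009900.2, a homologue of AtVEX1, had 0.776 and 1.48 RPKM at EH50, against 3.15 and 4.51 RPKM at EH25 (log2 change -1.59, SE 0.33, adjusted p = 0.0247). MtN21/UmamiT exporters, of which several release amino acids, had 12 higher and 2 lower of 103, but 5 of the 12 changed at least 2-fold in the stranded library, and 3 and 2 were higher with a library left out. Glyma.02G032500.1 had 16.9 and 15.7 RPKM at EH50, against 4.39 and 4.01 RPKM at EH25 (log2 change 1.90, SE 0.15, adjusted p = 0.000305). Aquaporins, water channels, had 9 lower and 3 higher of 45, and 2 and 0 lower and 1 and 1 higher with a library left out. The plasma membrane channel Glyma.12G075400.1 (PIP2;4) had 5.93 and 4.92 RPKM at EH50, against 25.5 and 14.95 RPKM at EH25 (log2 change -1.81, SE 0.27, adjusted p = 0.00533), whereas Glyma.18G198300.1 (PIP1;4) was higher, with 12.9 and 10.5 RPKM at EH50, against 1.49 and 2.92 RPKM at EH25 (log2 change 2.34, SE 0.29, adjusted p = 0.00241). Other matches to PIP1;4, Glyma.05G208700.1 and Glyma.08G015300.1, were lower, with changes of -1.71 and -1.67.

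Markers of other cell types were read beside these results. Of 23 embryo or cotyledon markers tested, 8 were higher at EH50 and 0 were lower, with a median change of 1.24. Their summed level, over all 45 genes in the file, was 86.4 and 76.6 RPKM at EH50, against 37.3 and 19.5 RPKM at EH25, and no marker exceeded 8.49 RPKM in the 4 libraries. Glyma.10G028300.1, a vicilin-type storage protein gene, had 7.70 and 5.77 RPKM at EH50, against 1.00 and 0.730 RPKM at EH25 (log2 change 2.64, SE 0.39, adjusted p = 0.00529). The cruciferin (11S globulin) homologue Glyma.19G164800.1 had 3.35 and 2.89 RPKM at EH50, against 0.504 and 0.399 RPKM at EH25 (log2 change 2.27, SE 0.42, adjusted p = 0.0145). The test called 0 of these markers without EH50 replicate 1 and 2 without EH25 replicate 1, and 4 of the 45 were at 0 in all 4 libraries. Their part in the other results was not tested. Endosperm markers reached at most 0.626 RPKM, with 22 of 36 genes at 0 in all 4 libraries. Phloem genes had 3 lower and 0 higher of 26, light-harvesting and photosystem genes 2 lower and 0 higher of 122, ribosomal proteins 2 higher and 5 lower of 595, and heat shock proteins 2 higher and 0 lower of 107. Of these 4 lists, 0 genes were called with a library left out, except 1 higher ribosomal protein without EH25 replicate 1.

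The earlier and later stages, given without a test, placed the change. The summed level of the secondary wall and xylem genes in UC413 was 338 and 324 RPKM at EH10, 442 and 634 RPKM at EH25, 1110 and 1071 RPKM at EH50, and 726 RPKM at EH100. That of the flavonoid and proanthocyanidin enzymes was 3105 and 2796 RPKM at EH10, 3030 and 2549 RPKM at EH25, 828 and 1014 RPKM at EH50, and 614 RPKM at EH100. The flavonoid genes were thus level between EH10 and EH25 within the spread of the replicates, and most of the drop lay between EH25 and EH50. Embryo or cotyledon markers stood at 12.8 and 10.2 RPKM at EH10, at 35.3 and 18.1 RPKM at EH25, at 82.3 and 72.1 RPKM at EH50, and at 311 RPKM at EH100 over the 23 genes tested. The EH100 libraries were made with the non-stranded kit.

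**Figure D4:**
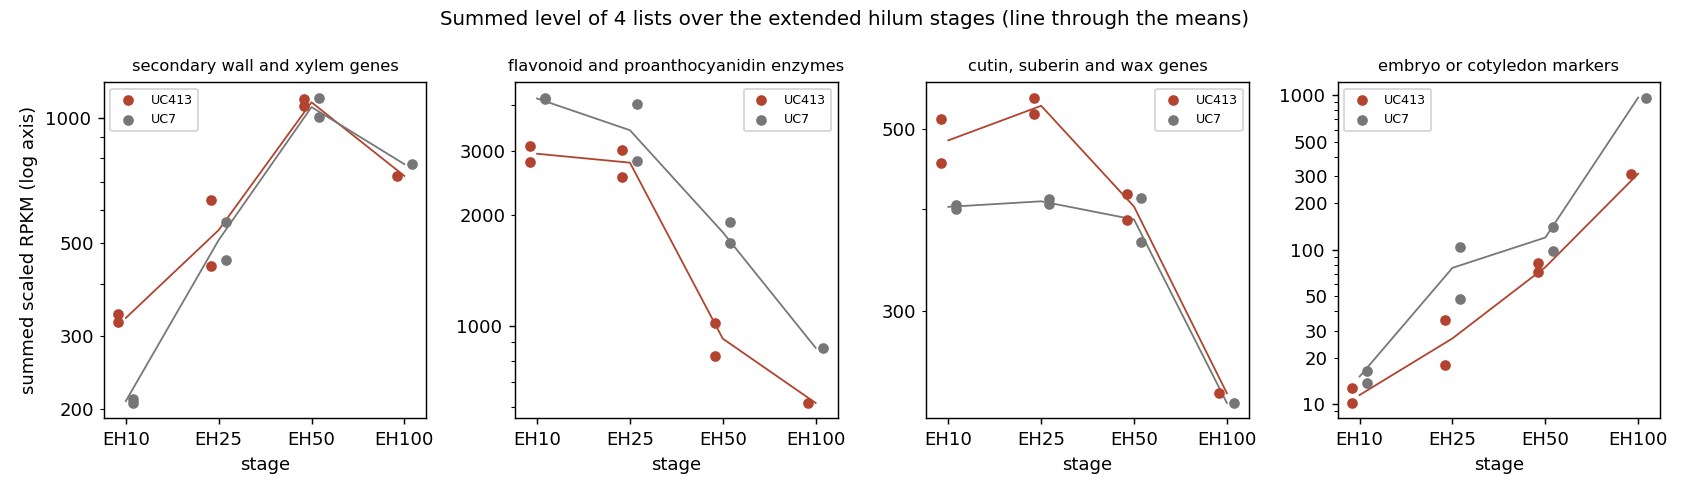
Summed scaled RPKM (log axes) of the tested genes of 4 lists over the stages of the extended hilum region, from EH10 to EH100. Points are libraries, 2 per isoline and stage and 1 at EH100, and lines join the means. In UC413 the secondary wall genes are highest at EH50 (1110 and 1071 RPKM) and the flavonoid genes drop between EH25 and EH50.

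Single genes were read over the same stages. Glyma.08G062000.2 (BAN) in UC413 had 186 and 201 RPKM at EH10 and 1.94 RPKM at EH100. Glyma.16G107500.1 (pectin acetylesterase) had 383 and 393 RPKM at EH10 and 1279 RPKM at EH100, below both EH50 libraries. Glyma.13G288100.1, the gene with the largest rise, reached 165 RPKM at EH100. In whole seed coats of UC413, Glyma.12G121700.1 (LAC4) was at 1.18 RPKM at WS50 and 0.535 RPKM at WS25, under its EH50 libraries of the hilum region. Glyma.08G062000.2 was at 29.9 RPKM at WS50 and 163 RPKM at WS25.

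Whether the change from EH25 to EH50 differed between UC413 and UC7 was tested as a difference of changes. No model passed (0 of 57568, 0%, limma). An unadjusted limma p under 0.05 was seen for 1836 models (3.19%), below the share of 0.05 expected with no difference. On recovered alignments limma-voom called 0 as well. In UC7, 246 models (0.427%) were higher and 432 (0.75%) were lower at EH50. Models called in both isolines made up 15.9% of the higher and 20.5% of the lower models of UC413, and 80.5% and 91.0% of those of UC7. The UC7 EH25 replicates correlated at 0.936, and with UC7 EH25 replicate 2 left out 504 models (0.876%) differed, 427 with the more positive change in UC413 and 77 with the more negative one. Among the EH25 and EH50 libraries left out in turn, only UC7 EH25 replicate 2 gave such models. Without it UC7 EH25 had no replicate. The count therefore turned on that library.

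The 8 named genes with the smallest p of this difference all fell in UC413. Apart from the 3 genes the study named, named genes were chosen for their change in UC413. That choice favours a larger change in UC413 than in UC7. Glyma.08G062000.2 (BAN) in UC413 had 6.68 and 10.8 RPKM at EH50, against 184 and 127 RPKM at EH25. In UC7 it had 117 and 134.8 RPKM at EH50, against 181 and 330 RPKM at EH25, and the difference of the changes was -3.17 (SE 0.47, adjusted p = 0.298) in UC413 relative to UC7 on the log2 scale. Without UC7 EH25 replicate 2, which left that group without a replicate, the difference was -3.61. Glyma.16G180500.1 (DCR) in UC413 had 8.31 and 9.04 RPKM at EH50, against 54.9 and 54.4 RPKM at EH25. In UC7 it had 10.1 and 11.9 RPKM at EH50, against 18.8 and 22.9 RPKM at EH25, a difference of -1.72 (adjusted p = 0.298), or -1.86 without UC7 EH25 replicate 2. Both Glyma.11G164000.1 and Glyma.17G114500.1 were near 0 in UC7. Glyma.11G164000.1, a homologue of laccase LAC3, in UC413 had 2.90 and 2.25 RPKM at EH50, against 11.4 and 12.5 RPKM at EH25. In UC7 it had 0.0471 and 0.0610 RPKM at EH50, against 0.0406 and 0.0367 RPKM at EH25, and the difference without UC7 EH25 replicate 2 was -2.18. Glyma.17G114500.1 (SHN1) was at 0 and 0 RPKM in the EH50 libraries of UC7, against 0.0164 and 0.00848 RPKM in the EH25 libraries of UC7. The phosphoenolpyruvate carboxykinase gene Glyma.01G019200.1 rose in UC413 and had 2.44 and 3.88 RPKM at EH50, against 6.35 and 1.77 RPKM at EH25 in UC7, but its difference of changes of 2.65 did not pass (adjusted p = 0.9997). Without UC7 EH25 replicate 2 this difference was 3.51.

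**Figure D5:**
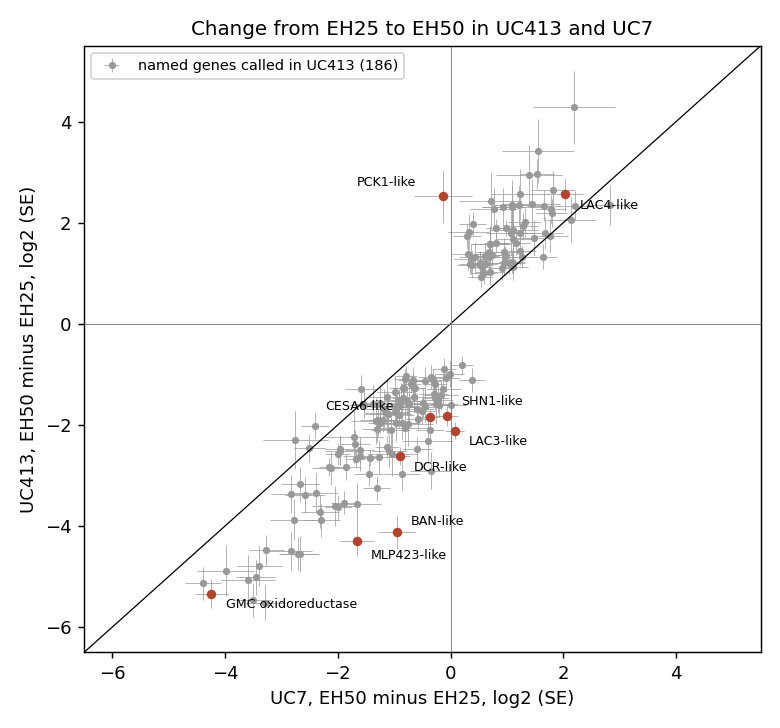
Log2 change of EH50 minus EH25 in UC413 (vertical) and UC7 (horizontal) for the 186 named genes called in UC413, with standard errors. The line marks equal change. The genes were chosen for their change in UC413, which favours larger changes on the vertical axis. Glyma.08G062000.2 (BAN) lies at -4.13 in UC413 and -0.96 in UC7, and the phosphoenolpyruvate carboxykinase gene Glyma.01G019200.1 at 2.52 in UC413 and -0.13 in UC7.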

How the data were processed

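RNA of the extended hilum region and whole seed coats was sequenced in 20 libraries. The authors aligned the reads with Bowtie v1 to 88647 Glyma cDNA models (Wm82.a2), allowing each read at most 3 mismatches and at most 25 places, and deposited RPKM for each model and library. A read counts for every model it aligns to, so splice forms and near copies share reads, and because counting is not stated to use strand, overlapping and antisense genes cannot be told apart. Alignment numbers were recovered from the steps of the RPKM values.

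The RPKM were divided by median-of-ratios size factors, and log2(RPKM + 0.25) of 57568 models with at least 1 RPKM in at least 2 of the 12 extended hilum libraries was fitted with limma 3.58.1 (R 4.3.3, with data.table, version 1.17.8), with 6 groups in 1 fit, an intensity trend and Benjamini-Hochberg adjustment. This scale understates the changes of low genes. Genes were represented by the model with the highest mean. Figures were drawn with matplotlib 3.10.9 under Python 3.11.15.

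Named genes were called models, at least 2-fold changed in the stranded EH50 library alone and on the same side of both EH25 libraries: the 12 largest rises and 12 largest falls, the 6 most abundant of each, up to 4 per list, and 3 genes the study named. Glyma.06G225500.2, Glyma.01G228700.1, Glyma.10G026000.1, Glyma.12G241700.2, Glyma.08G220200.2 and Glyma.06G324400.4 fall outside that rule and were chosen after their values were seen. The members and lists were chosen with earlier results of these data known. Names are those of the best Arabidopsis match or protein domain in the deposited file, and 0 identifiers matched the genes listed from RefSeq, so no sequence or position is given. Alternatives were other scalings, pseudocounts and filters, limma-voom, a kit covariate, a replicate block, and leaving out each library. The fit was tested on simulated data. All 20 per-library columns were mapped.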

Additional observations from a re-analysis of the deposited data

Results flagged for a closer look

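The change from EH25 to EH50 was marked for a closer look in 3 genes. In each, both EH50 libraries of UC413 lay on the same side of both its EH25 libraries. Both EH50 libraries of UC7 lay on the opposite side of both EH25 libraries of UC7. Glyma.11G164000.1, a homologue of laccase LAC3, had a difference of changes of -2.19 on the log2 scale, UC413 minus UC7 (adjusted p = 0.216). In UC7 the gene stood at 0.0471 and 0.0610 RPKM in the EH50 libraries, against 0.0406 and 0.0367 RPKM in the EH25 libraries, near 0 at both stages. Glyma.18G175300.1, a pectate lyase gene, in UC413 had 2.06 and 2.43 RPKM at EH50, against 5.99 and 4.37 RPKM at EH25. In UC7 it had 13.9 and 10.7 RPKM at EH50, against 9.91 and 8.66 RPKM at EH25, and its difference was -1.496. Glyma.11G154900.1 (SbPRP3) in UC413 had 244 and 250 RPKM at EH50, against 428 and 274 RPKM at EH25. In UC7 it had 1207 and 870 RPKM at EH50, against 633 and 508 RPKM at EH25, and its difference was -1.33. The test of the difference did not pass for any of the 3 genes with all libraries. Without UC7 EH25 replicate 2 the difference was -2.18 for Glyma.11G164000.1, -1.40 for Glyma.18G175300.1 and -1.17 for Glyma.11G154900.1.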

How the results depend on the processing

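No named gene that was called in UC413 reversed direction under the alternatives in which its UC413 change was refitted (0 of those tested in each). The direction of other called models was not followed. The ACC oxidases, which were not called, did change sign between alternatives. Their changes ran from -0.40 to 1.21 for Glyma.09G008400.1 and from -0.82 to 1.05 for Glyma.15G112700.1. The numbers of calls moved with the libraries. Beside 1243 higher and 1914 lower models, leaving out 1 library at a time gave 182 to 1499 higher and 372 to 2075 lower models, and 0 to 504 models whose change differed between UC413 and UC7. Without EH25 replicate 1 there were 182 and 372, without EH25 replicate 2 1499 and 2075, without EH50 replicate 1 207 and 416, and without EH50 replicate 2 432 and 1086. The RPKM as deposited gave 710 higher models, and 2 models that differed between the isolines, against 1 under quantile normalization. Calls were 33.1% higher ones with the RPKM as deposited and 39.4% with scaled RPKM. A covariate for the kit left 501 and 918, stranded libraries alone 85 and 247, and 1 model per gene 668 and 1121. Of 189 named genes, 54 lost the call with the kit covariate, 118 with stranded libraries alone, 100 without EH50 replicate 1, 100 without EH25 replicate 1 and 45 with no filter on low values. The cause was not tested. List counts without a library were added after seeing the data.

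The replicate numbers did not pair the libraries. Deviations of same-numbered UC413 libraries at EH50 and EH25 correlated at 0.0942, and over 15 pairs of groups the correlations ran between -0.425 and 0.468. With replicate number as a block, 1319 models were higher, 2141 were lower and 0 differed between the isolines.

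A pair of libraries per stage limits what can be called, and low genes have few alignments.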

Other observations

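Protease inhibitors and lipoxygenases, proteins associated with defence and storage in legumes, were mostly lower where they passed the test. Kunitz and Bowman-Birk inhibitors had 4 lower and 0 higher of 20, and all 4 lay at least 2-fold down in the stranded EH50 library alone, while 1 was called without EH50 replicate 1 and 1 without EH25 replicate 1. Glyma.08G342100.1, a Kunitz trypsin inhibitor gene that can share reads with its copies, had 9.56 and 18.2 RPKM at EH50, against 79.5 and 39.0 RPKM at EH25 (log2 change -2.06, SE 0.46, adjusted p = 0.0322). Lipoxygenases, which oxidize fatty acids, had 7 lower and 1 higher of 27. Glyma.13G347800.1 had 14.6 and 18.3 RPKM at EH50, against 53.7 and 42.1 RPKM at EH25 (log2 change -1.53, SE 0.28, adjusted p = 0.0150), and the 1 higher gene, Glyma.13G347500.1, had 2.03 and 1.27 RPKM at EH50, against 0.202 and 0.188 RPKM at EH25 (log2 change 2.06, SE 0.44, adjusted p = 0.0266). No lipoxygenase was called without EH50 replicate 1 or without EH25 replicate 1 (0 of 27 each).

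Homeobox factors had 7 higher (5.19% of those tested, against 2.33% of all genes) and 8 lower members (5.93%, against 3.79%). Without EH50 replicate 1, 2 were higher and 1 was lower, and without EH25 replicate 1, 1 was higher and 1 was lower. Glyma.03G007600.1, a homologue of WOX11, had 8.84 and 7.92 RPKM at EH50, against 3.68 and 2.53 RPKM at EH25 (log2 change 1.38, SE 0.31, adjusted p = 0.0307), and Glyma.19G149000.2, a homologue of HAT14, had 0.420 and 0.447 RPKM at EH50, against 3.57 and 1.75 RPKM at EH25 (log2 change -2.02, SE 0.25, adjusted p = 0.00248).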
